A study of Mus musculus with 3 samples.

Results

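The insulin-like growth factor (IGF) genes of cultured mouse embryonic kidneys are described here across 3 culture media. The set holds 10 genes of 19938 measured with 1 gene symbol per probe set: the ligands Igf1 and Igf2, the receptors Igf1r and Igf2r, and the binding protein genes Igfbp2, Igfbp3, Igfbp4, Igfbp5, Igfbp6 and Igfbp7. They were chosen by name, each was measured by 1 probe set, and 0 further probe sets named a member together with another gene. Kidneys of C57BL/6 mouse embryos at embryonic day 11.5 were laid on Transwell filters and kept for 48 h. One medium was serum-free DMEM with retinoic acid (called retinoic acid here), one was serum-free DMEM alone (serum-free), and one was 10% FBS DMEM, that is, DMEM with fetal bovine serum (serum). RNA of whole explants from each medium went onto 1 Affymetrix Mouse Gene 1.0 ST array, 3 arrays in all. Neither the dose of retinoic acid nor the number of kidneys per array is given in the sources used here. With 1 array per medium no difference has an error or a test, no p-value was computed, and every value describes these arrays only.

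IGF1 and IGF2 are secreted growth factors that signal through IGF1R, a receptor tyrosine kinase. IGF2R, also known as the cation-independent mannose 6-phosphate receptor, takes IGF2 up and carries it to lysosomes, and in the mouse Igf2 is expressed mainly from the paternal allele and Igf2r from the maternal one. The binding proteins hold IGFs in fluids and matrix and can restrain or prolong their action. Igfbp7 encodes a related secreted protein that binds IGFs weakly and is found around blood vessels. Serum carries IGF and binding proteins of its own, which an RNA array does not measure.

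The promoters of Igfbp7, Igfbp5 and Igfbp3 are printed because Igfbp7 had the largest difference of the set, Igfbp5 the largest for retinoic acid against serum-free medium among genes above the floor, and Igfbp3 the largest of the binding protein genes that were lowest in serum. Each runs from 250 bases before to 50 bases after a transcription start, read 5′ to 3′ along the gene, and comes from RefSeq on build GRCm38.p6. They are chr5:77407996-77408295 (minus strand) for Igfbp7, chr1:72874816-72875115 (minus strand) for Igfbp5 and chr11:7213874-7214173 (minus strand) for Igfbp3. Capitals mark matches, on either strand, to any of 8 searched motifs. The TATA box was searched as the letters TATAAA and, separately, as the letters TATATA. SP1 and its relatives bind sites with the core GGGCGG. For the half-sites of nuclear receptors, the retinoic acid receptors among them, the letters AGGTCA were searched, then the variant AGTTCA, then the variant GGTTCA. The others were CATTCC, a core bound by TEAD factors, and the CArG box bound by SRF. Both TATA forms can overlap, but no matches overlap in these 3 promoters.
Igfbp7: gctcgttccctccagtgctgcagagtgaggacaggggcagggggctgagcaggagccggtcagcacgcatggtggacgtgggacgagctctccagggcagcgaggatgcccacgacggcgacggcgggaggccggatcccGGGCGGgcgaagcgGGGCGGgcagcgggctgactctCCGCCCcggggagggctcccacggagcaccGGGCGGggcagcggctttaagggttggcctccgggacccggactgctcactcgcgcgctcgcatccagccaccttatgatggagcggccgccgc
Igfbp5: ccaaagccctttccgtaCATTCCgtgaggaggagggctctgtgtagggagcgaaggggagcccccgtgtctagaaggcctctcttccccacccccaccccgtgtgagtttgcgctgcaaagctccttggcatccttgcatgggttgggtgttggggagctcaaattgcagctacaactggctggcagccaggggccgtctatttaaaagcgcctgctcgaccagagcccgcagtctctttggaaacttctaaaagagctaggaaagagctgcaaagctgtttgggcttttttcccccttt
Igfbp3: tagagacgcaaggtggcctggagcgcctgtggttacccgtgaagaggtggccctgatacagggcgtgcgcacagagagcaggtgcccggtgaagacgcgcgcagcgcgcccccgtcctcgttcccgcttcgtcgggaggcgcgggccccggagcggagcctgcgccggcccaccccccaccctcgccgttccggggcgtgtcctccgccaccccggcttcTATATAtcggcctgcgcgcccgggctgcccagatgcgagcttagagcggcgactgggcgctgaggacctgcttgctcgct

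The Igfbp7 promoter held 4 matches to GGGCGG, starting at -110, -96, -74 and -44 from the start site, and none to the other motifs. GGGCGG was present in 35.7% of all 32851 promoters of this length. The Igfbp5 promoter held 1 match, to CATTCC at -233, a motif found in 14.7% of all promoters. The Igfbp3 promoter held TATATA at -30, found in 5.67% of all promoters. The GC content was 73.3% for Igfbp7, 56.3% for Igfbp5 and 71.7% for Igfbp3. Over all 14 promoters that RefSeq lists for the 10 genes, AGGTCA was present in 4, those of Igf1, Igf1r, Igf2r and 1 of the promoters of Igf2, against 16.3% of all promoters. GGGCGG was present in 6 of the 14, those of Igf1r, Igf2r and Igfbp7, 1 of Igfbp2 and 2 of Igf2, and CATTCC in 4, that of Igfbp5 and 3 of Igf2. GGTTCA was present in that of Igfbp6 (10.4% of all promoters), AGTTCA in 1 promoter of Igf2 (14.0% of all), and the CArG box in 1 promoter of Igf2 (1.63% of all). TATAAA was found in the promoters of Igfbp4 and Igfbp6 (13.6% of all). These are matches of letters in a short window and say nothing about binding.

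Levels are given as log2 of the deposited intensity. Counts of higher and lower genes take those with a difference of 2-fold or more whose brighter array reached 7.12, a floor set at the median of all gene-level values. Of all genes at or above the floor, at most 1.05% were higher and at most 0.816% lower in any comparison. These shares stand beside every count of markers below. Of the 10 genes, 9 lay above the floor in all 3 media and Igfbp6 lay below it in all 3. Probe sets differ in how brightly they hybridise, so levels of different genes are not ranked against each other. Median intensities over all probe sets were 84.7, 85.5 and 81.5 on the retinoic acid, serum-free and serum arrays. The explants carried kidney markers in every medium: all 7 cap mesenchyme, all 6 measured ureteric bud and all 6 renal stroma markers were at or above the floor on each array. A difference in a bulk explant can come from fewer cells of a type or from less RNA per cell, and the 2 cannot be told apart here.

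**Figure D1:**
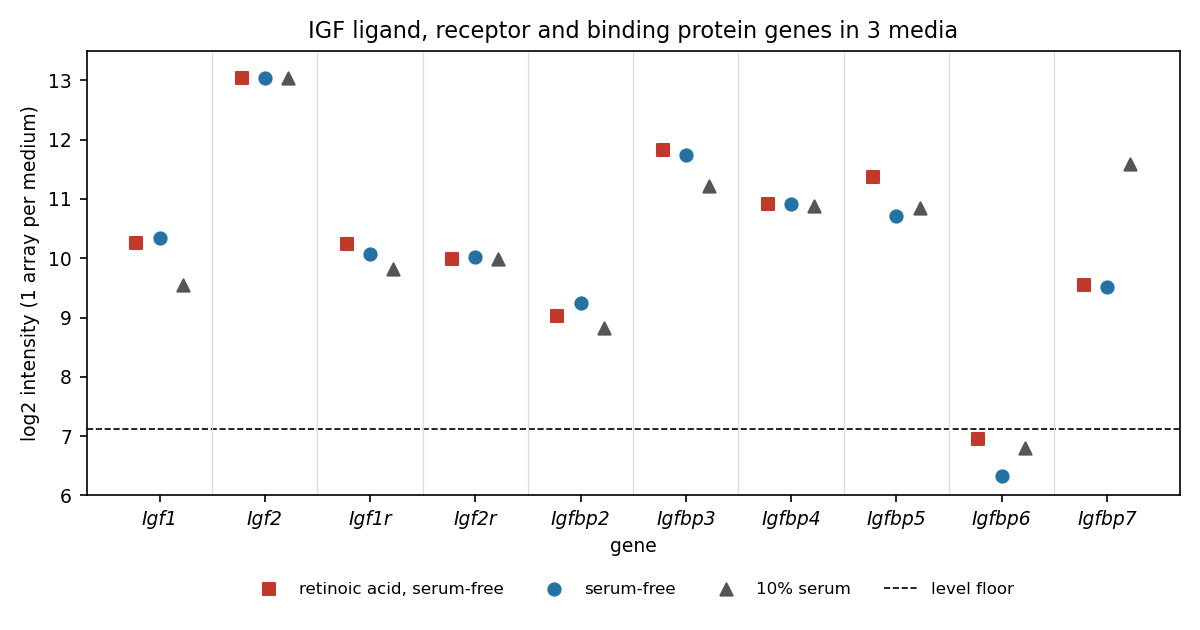
Log2 intensity (vertical axis) of the 10 genes (horizontal axis) in serum-free medium with retinoic acid (squares), serum-free medium (circles) and 10% serum (triangles), 1 array per medium, with the level floor of 7.12 dashed. Igfbp7 stands at 9.55 and 9.52 in the serum-free media and at 11.59 in serum, while the 3 points of Igf2 coincide at 13.03.

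Of the ligands, Igf1 was higher in both serum-free media than in serum, and Igf2 had the same value on all 3 arrays. Igf1 (probe set 10365559, chromosome 10) stood at 10.26 with retinoic acid, 10.34 in serum-free medium and 9.55 in serum, or 1223, 1297 and 748 in intensity. The serum array was the low one, and the other two lay close together. Igf1 was 1.73-fold higher in serum-free medium than in serum (log2 difference 0.79), a size that 2.33% of genes at or above the floor matched or passed in either direction. With retinoic acid it was 1.63-fold higher than in serum (0.71), and 0.08 below serum-free medium. Igf2, the growth factor gene prominent in embryonic tissues, stood at 13.03 in each medium. RMA often returns exactly equal values for arrays, and 21.2% of the 10241 genes at or above the floor on any array had a single value on all 3, so this equality is no measure of equal expression.

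Markers of macrophages, a cell type that makes Igf1 in the mouse, were lowest in serum, as Igf1 was. Of 12 macrophage markers, 11 were at least 2-fold higher in serum-free medium than in serum, beside 0.876% of genes at or above the floor. The median of the 12 was 1.48, and their summed intensity was 11473 against 3854. With retinoic acid 4 of 12 were higher than in serum by 2-fold or more, with a median of 0.93 and a summed intensity of 7919. Among the defining markers, Csf1r, the receptor for macrophage growth factor, stood at 9.28 with retinoic acid, 9.08 in serum-free medium and 7.74 in serum. Cd68 stood at 9.54, 10.70 and 8.77 and Mrc1 at 7.25, 8.27 and 6.32 in the same order of media, and the number of the 12 at or above the floor was 11, 11 and 9. Between retinoic acid and serum-free medium the macrophage median was -0.53, with 2 markers at least 2-fold lower, while Igf1 differed by -0.08. Endothelial markers also ran higher in serum-free medium than in serum, 9 of 10 above 0 and 1 below, with a median of 0.49. With retinoic acid against serum 7 were above 0, 2 below and 1 equal, with a median of 0.13. The part of macrophages or endothelium in the Igf1 difference was not tested.

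Of the receptors, Igf1r was lowest in serum and Igf2r was nearly level. Igf1r (chromosome 7) stood at 10.23 with retinoic acid, 10.08 in serum-free medium and 9.81 in serum. It was 1.34-fold higher with retinoic acid than in serum (0.42), 1.20-fold higher in serum-free medium than in serum (0.26) and 1.12-fold higher with retinoic acid than in serum-free medium (0.16). The last of these is small, as 21.1% of genes at or above the floor differed by as much. Igf2r (chromosome 17) stood at 9.99 with retinoic acid, 10.02 in serum-free medium and 9.99 in serum. Its differences were -0.03 for retinoic acid against serum-free medium and 0.03 for serum-free medium against serum. The values with retinoic acid and in serum were exactly equal, and as for Igf2 such a tie is no measure of equal expression.

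Igfbp7 was the 1 gene of the set that differed by at least 2-fold, and it was lower in both media without serum. Igfbp7 (probe set 10530841, chromosome 5) stood at 9.55 with retinoic acid, 9.52 in serum-free medium and 11.59 in serum, or 748, 736 and 3077 in intensity. The serum array alone was high. Igfbp7 was 4.18-fold lower in serum-free medium than in serum (-2.06), and 8 of the 10156 genes that reached the floor were lower by more. It was 4.11-fold lower with retinoic acid than in serum (-2.04), where 10 of 10169 genes were lower by more. Between retinoic acid and serum-free medium the difference was 0.02, a size that 53.2% of genes reached. The differences against serum share the serum array, so they are not separate evidence.

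Markers of smooth muscle were also lower without serum. All 6 had differences below 0 in serum-free medium against serum, 5 of them at least 2-fold lower, with a median of -1.61, and their summed intensity was 3623 against 9839. With retinoic acid the sum was 1659, and the median against serum-free medium was -1.17, whereas Igfbp7 differed by 0.02 between these arrays. The defining markers Acta2, Tagln and Cnn1 stood at 9.72, 6.52 and 5.77 with retinoic acid, at 11.11, 7.84 and 6.79 in serum-free medium and at 12.42, 9.76 and 9.54 in serum. Markers of endothelium, the lining of blood vessels, ran the other way from Igfbp7: 9 of 10 were above 0 in serum-free medium against serum, with a median of 0.49, 0 of them at least 2-fold higher, and a summed intensity of 9604 against 6956. With retinoic acid the endothelial sum was 8151. The defining endothelial markers Pecam1, Cdh5 and Kdr stood at 9.63, 11.34 and 8.92 with retinoic acid, at 9.89, 11.70 and 9.27 in serum-free medium and at 9.36, 10.89 and 8.78 in serum. All 10 endothelial markers were at or above the floor in each medium, but of the 6 smooth muscle markers 2 were with retinoic acid, 3 in serum-free medium and 5 in serum.

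Markers of kidney epithelium were lower in serum-free medium than in serum as well. All 6 early nephron markers had differences below 0 in serum-free medium against serum, 3 of them at least 2-fold lower, with a median of -0.91 and a summed intensity of 5118 against 8083. Lhx1 differed by -1.93 and Wnt4, an inducer of nephrons, by -1.43. For retinoic acid against serum the early nephron median was -0.53, with a sum of 5621 against 8083. All 6 measured ureteric bud markers also had differences below 0 in serum-free medium against serum, 2 of them at least 2-fold lower. Their median was -0.49, with a sum of 3491 against 6723. Calb1, at 9.73 in serum-free medium and 11.67 in serum, made most of this difference in the sum. For retinoic acid against serum the ureteric bud median was -0.14, with 2 of the 6 above 0, 3 below and 1 equal. The sums were 6786 and 6723, with Calb1 and Ret the 2 markers above 0. Igfbp7 differed by 0.02 between retinoic acid and serum-free medium. The part of any of these cell types in the Igfbp7 difference was not tested.

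Igfbp3, the main carrier of IGFs in the circulation, was higher in both serum-free media. Igfbp3 (probe set 10384223, chromosome 11) stood at 11.82 with retinoic acid, 11.73 in serum-free medium and 11.22 in serum, or 3624, 3408 and 2389 in intensity. As with Igf1, the serum array was the low one. It was 1.52-fold higher with retinoic acid than in serum (0.60) and 1.43-fold higher in serum-free medium than in serum (0.51), sizes that 5.04% and 4.94% of genes at or above the floor matched or passed. Between retinoic acid and serum-free medium it differed by 0.09. Igfbp1, the neighbouring coding gene of Igfbp3 on chromosome 11 in the RefSeq gene order, stayed at 5.50 in all 3 media, below the floor.

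Igfbp5, which encodes a binding protein that also attaches to extracellular matrix, was highest with retinoic acid. Igfbp5 (probe set 10355500, chromosome 1) stood at 11.37 with retinoic acid, 10.72 in serum-free medium and 10.85 in serum, or 2638, 1688 and 1840 in intensity. The retinoic acid array was the high one, and serum-free medium differed from serum by -0.12. It was 1.56-fold higher with retinoic acid than in serum-free medium (0.64), short of 2-fold, and 3.78% of genes at or above the floor differed by as much. It was 1.43-fold higher with retinoic acid than in serum (0.52). Renal stroma markers, which include mesenchymal genes, had a median of 0.08 for retinoic acid against serum-free medium, and 1 of 6 was at least 2-fold higher, the ureter mesenchyme gene Tbx18 at 1.22. Foxd1 and Pdgfra differed by 0.08 and 0.07. Pdgfrb went the other way at -0.68, and of the 6 markers 4 were above 0, 1 below and 1 equal. The summed intensity of the list was 7550 with retinoic acid, 7431 in serum-free medium and 7714 in serum. This nearly level sum holds moves in both directions. Other kidney markers moved on the same arrays. Ureteric bud markers had a median of 0.26 over 6, with 5 above 0 and 1, Gata3, below at -0.48. The 2 that were at least 2-fold higher were Calb1, by 2.18, and Ret, at 9.92 against 8.42. Wnt11 and Wnt9b differed by 0.33 and 0.20. The ureteric bud sum was 6786 with retinoic acid against 3491 in serum-free medium, and Calb1 made most of this rise. Of the early nephron markers, Wnt4 was higher by 1.42, Lhx1 by 1.28 and Pax8 by 0.70. Of these 6 markers 3 were above 0, 2 below and 1 equal, with a median of 0.35 and a sum of 5621 against 5118. Cap mesenchyme markers had a median of -0.50 over 7, with 1 above 0 and 6 below, and a sum of 7068 against 11162. Six2 and Osr1 differed by -0.86 and -0.97, and Cited1, at -2.13, was the 1 at least 2-fold lower. The part of these cell types in the Igfbp5 difference was not tested.

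Igfbp2, the neighbour of Igfbp5 on chromosome 1 in the RefSeq gene order, had a different profile. It stood at 9.02 with retinoic acid, 9.24 in serum-free medium and 8.83 in serum. It was 1.33-fold higher in serum-free medium than in serum (0.41) and differed by -0.22 between retinoic acid and serum-free medium, where Igfbp5 differed by 0.64. Igfbp4 (chromosome 11) stood at 10.91 with retinoic acid, 10.91 in serum-free medium and 10.89 in serum, and its largest difference was 0.02. Igfbp6, which encodes a binding protein with a preference for IGF2, lay under the floor at 6.96, 6.33 and 6.80 in the same order of media. Its differences of 0.63 for retinoic acid against serum-free medium and -0.47 for serum-free medium against serum are therefore uncertain, since low intensities hold a larger share of background, and the first became 0.47 with 32 added to the intensities.

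**Figure D2:**
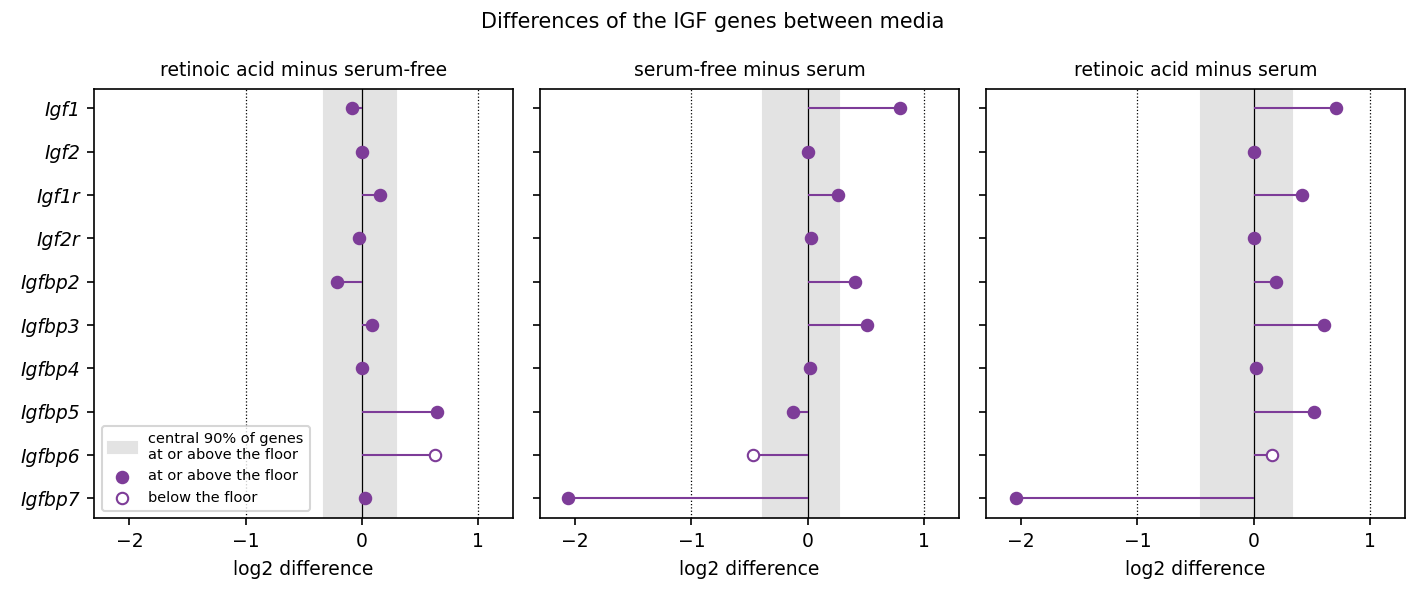
Log2 difference (horizontal axis) of each gene (vertical axis) in the 3 comparisons; open circles mark a gene below the floor, dotted lines mark 2-fold, and the grey band holds the central 90% of genes at or above the floor. Igfbp7 lies beyond 2-fold in both comparisons with serum, at -2.06 and -2.04, and at 0.02 between retinoic acid and serum-free medium.

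For retinoic acid against serum-free medium, 0 of the 10 genes were 2-fold or more higher and 0 were lower by that size, beside 1.05% and 0.613% of the 10111 genes at or above the floor. The median difference of the set was 0.01 over all 10 and 0.004 over the 9 at or above the floor, against 0 over the 10111 genes. For serum-free medium against serum, 0 were 2-fold or more higher and 1, Igfbp7, was lower by that size, beside 0.876% and 0.699% of 10156 genes. The median of the set was 0.02 over all 10 and 0.03 over the 9, against -0.004 over all genes at or above the floor. Under cyclic loess scaling the median of all 10 was 0.06 and that of the genes at or above the floor was 0.01, both above 0. For retinoic acid against serum the counts were again 0 higher and 1 lower, beside 1.04% and 0.816% of 10169 genes. The median was 0.18 over all 10 and 0.19 over the 9, against -0.005 over the 10169 genes. At a threshold of 1.5-fold, Igfbp5 was higher and 0 genes of the set were lower with retinoic acid than in serum-free medium, beside 2.41% and 1.94% of genes. In serum-free medium against serum, Igf1 was higher and Igfbp7 lower, beside 2.01% and 2.07%. In retinoic acid against serum, Igf1 and Igfbp3 were higher and Igfbp7 lower, beside 2.46% and 2.84%. The embryos' sex is not in the labels, and Xist differed by -1.70 while the Y-linked genes Kdm5d and Eif2s3y differed by 1.19 and 1.18 for retinoic acid against serum-free medium. Against serum, Xist differed by 0.64 and Eif2s3y by -0.92 in serum-free medium, and Xist by -1.05 and Eif2s3y by 0.26 with retinoic acid. None of the 10 genes lies on a sex chromosome, and the part of sex in their differences was not tested.

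The genes whose profile over the 3 arrays lay closest to that of Igfbp7, by Euclidean distance between log2 values centred on each gene's mean, were Car4 at 0.22, Slc7a3 at 0.34, Svopl at 0.35 and Map3k7cl at 0.47. Car4 encodes a membrane carbonic anhydrase and stood at 6.97 with retinoic acid, 6.76 in serum-free medium and 9.14 in serum. Slc7a3 encodes a transporter of cationic amino acids and stood at 6.34, 6.40 and 8.84 in the same order. Their serum-free values lie under the floor, unlike those of Igfbp7. The closest to Igf1 were Zfhx4, a transcription factor gene, at 0.02, Tnfaip8l2, a regulator of immune responses, at 0.03, Gbp9, a guanylate-binding protein gene, at 0.04, and P2ry6, a receptor gene for extracellular nucleotides, at 0.04. For serum-free medium against serum these 4 differed by 0.81, 0.78, 0.76 and 0.73, beside 0.79 for Igf1. In serum Zfhx4 stood at 6.81 and Gbp9 at 6.40, under the floor, while Tnfaip8l2 and P2ry6 lay above it in all 3 media. Profiles like that of Igf1 were common, as 58 genes lay within a distance of 0.25 of it, beside 1 for Igfbp7.

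**Figure D3:**
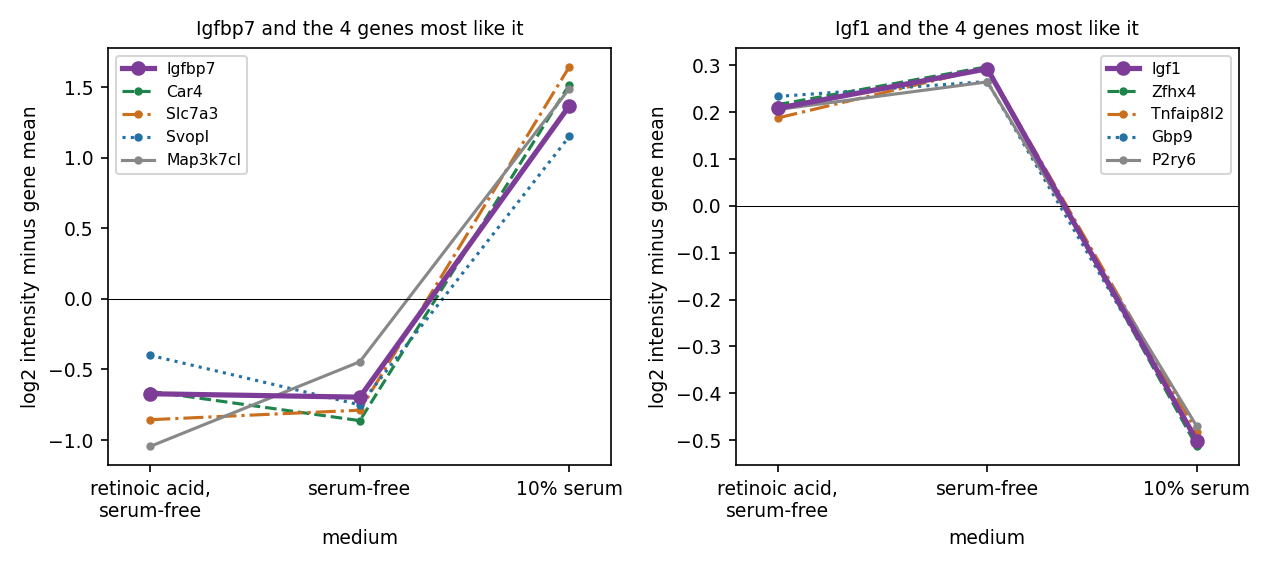
Log2 intensity minus each gene's mean over the 3 arrays (vertical axis) in the 3 media (horizontal axis) for Igfbp7 and Igf1 (thick lines) and the 4 genes closest to each. Igfbp7 and its closest genes are high in serum alone, and Igf1 and its closest genes are low in serum alone.

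Among genes that act on the binding proteins, 0 of 7 differed by at least 2-fold in any comparison, and 4 lay at or above the floor on some array. Of all genes at or above the floor, at most 1.05% were 2-fold higher and at most 0.816% lower in any comparison. A count of 0 in this list or in the lists below is near those shares. Stc1, which encodes a secreted inhibitor of the pappalysin protease, stood at 9.84 with retinoic acid, 10.60 in serum-free medium and 10.14 in serum. It differed by -0.76 for retinoic acid against serum-free medium. Pappa, which encodes the pappalysin that cleaves binding proteins, stood at 8.03, 7.51 and 8.06 in the same order. The serum-free array was the high one for Stc1 and the low one for Pappa. Stc2 differed by -0.47 for serum-free medium against serum, and Adam12 by 0.23 for retinoic acid against serum-free medium. Igfals, the gene of the acid-labile subunit that joins circulating IGF complexes, stayed at 5.42, below the floor.

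Of 22 measured genes of insulin and IGF receptor signalling, 0 differed by at least 2-fold in any comparison. The median was 0 in each, with 12 of the 22 exactly equal between retinoic acid and serum-free medium and 10 in each comparison with serum. Insr, the insulin receptor gene, stood at 10.06 with retinoic acid, 9.71 in serum-free medium and 9.56 in serum, and differed by 0.50 for retinoic acid against serum. As with Igf1r, the retinoic acid array was the highest and the serum array the lowest. Foxo1, a transcription factor held back by AKT, differed by -0.25 for retinoic acid against serum-free medium. Pik3cb differed by 0.24 and Foxo3 by 0.21 for serum-free medium against serum, and Mtor by 0.25 for retinoic acid against serum. Irs1, Irs2, Grb10, Pik3ca, Pik3r1, Akt1 and Rictor, all above the floor, each had a single value on all 3 arrays. So had 21.2% of the genes at or above the floor on any array.

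Of 12 genes known as FOXO targets, Klf9, a transcription factor gene, was the 1 that differed by 2-fold or more in any comparison. It stood at 8.39 with retinoic acid, 7.08 in serum-free medium and 8.83 in serum, so it was higher with retinoic acid than in serum-free medium, by 1.31, and lower in serum-free medium than in serum, at -1.75. The serum-free array, where Klf9 lay just under the floor, was the low one. The median of the list was 0.04 for retinoic acid against serum-free medium and 0 for serum-free medium against serum. Klf9 also responds to thyroid hormone and glucocorticoids. Sod2 and Klf9 each differed by -0.44 for retinoic acid against serum.

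Of the other secreted proteins related to the binding proteins, Ccn1 and Ccn2 were lower without serum. Of 8 genes on this list, 2 were at least 2-fold lower in serum-free medium than in serum and 0 at least 2-fold higher, with a median of -0.15, or -0.77 over the 4 at or above the floor. Ccn2 and Ccn1 encode matricellular proteins that share an IGFBP-like domain with the family. Ccn2 stood at 8.27 with retinoic acid, 8.98 in serum-free medium and 11.03 in serum, and Ccn1 at 8.39, 9.05 and 10.28. Their differences for serum-free medium against serum were -2.05 and -1.24. For retinoic acid against serum-free medium Ccn2 differed by -0.71 and Ccn1 by -0.66, whereas Igfbp7 differed by 0.02.

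Imprinted growth genes were measured for 10 listed symbols, and 0 differed by at least 2-fold. Dlk1, a paternally expressed growth regulator, stood at 11.03 with retinoic acid, 11.91 in serum-free medium and 11.59 in serum, and differed by -0.88 for retinoic acid against serum-free medium. Meg3, the maternally expressed RNA of the same cluster, stood at 9.09, 9.58 and 9.35. Both were highest in serum-free medium and lowest with retinoic acid. Cdkn1c, a cell cycle inhibitor, differed by -0.28 and Peg3 by 0.25 for retinoic acid against serum-free medium. The median of the list was -0.02 for retinoic acid against serum-free medium and 0.02 for serum-free medium against serum. Of the genes whose proteins bind Igf2 mRNA, Igf2bp1 stood at 10.40 in all 3 media and Igf2bp3 at 10.22 with retinoic acid and 10.33 in the other two.

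**Figure D4:**
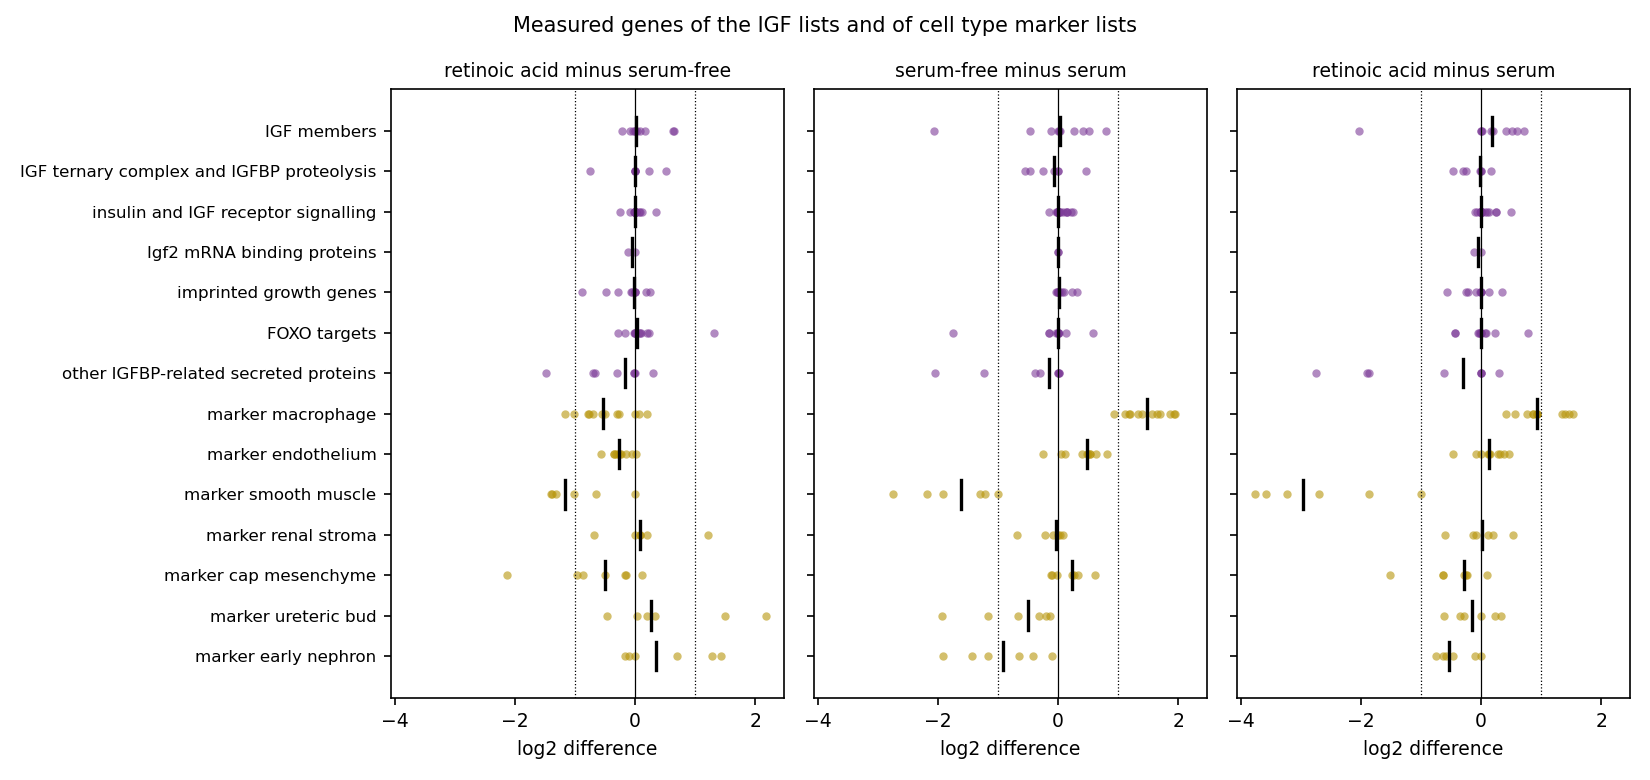
Log2 difference (horizontal axis) of every measured gene (points) in the IGF-related lists (purple) and the cell type marker lists (ochre), with each list's median as a black bar and 2-fold as dotted lines. In serum-free medium against serum the macrophage median lies at 1.48 and the smooth muscle median at -1.61, while the medians of the IGF lists over all measured genes lie between -0.15 and 0.02. Over genes at or above the floor the lowest IGF list medians are -0.77 for the IGFBP-related secreted proteins and -0.27 for the list of the ternary complex and proteolysis.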

How the data were processed

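Column-purified total RNA, 250 ng per array, was labelled as biotinylated cRNA, per the labels' protocols. The authors deposited one intensity per probe set, on a linear scale running between 3.84 and 17250, made with Affymetrix Expression Console 1.1 and RMA, per the submitters' processing notes. The settings of that run are not stated, and RMA's quantile step equalises the arrays. Each column was matched to its medium by its sample label.

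The log2 of the deposited intensities was used with no pseudocount. Of 35556 probe sets, 21789 carried 1 symbol in the platform annotation. Where a gene had several, the brightest on average was kept, which gave 19938 genes. Calls required a 2-fold difference and a higher value at or above the median of all gene-level values (140 in intensity). The calling code was run on simulated data with shifts set above the threshold and noise set well below it. That run checks the code and says nothing about errors in these arrays. Of the genes in the fixed lists, 7 are not analysed here. The named genes were the 10 members and, in each pathway list, genes past 2-fold or up to 3 with the largest difference. The defining cell markers, the first 3 of each cell type list, were named too. So were the 4 closest profiles for the 2 members with the widest range, without gene models. Tbx18, Calb1, Gata3, Igfbp1, Igfals, genes with a single value on all arrays, the neighbours and the printed promoters were chosen after their values were seen. The members and lists were chosen with earlier results of these data known. Alternatives were 32 added to intensities, cyclic loess (limma 3.58.1), median centring, the mean of a gene's probe sets, no floor, a higher floor and a 1.5-fold threshold. Promoter letters were searched with Python 3.11.15 in the RefSeq table of build GRCm38.p6. The array values name no build. The number of arrays limits the precision.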

Additional observations from a re-analysis of the deposited data

How the results depend on the processing

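Adding 32 to the intensities, cyclic loess scaling and centring the arrays on their medians left each count of genes at 2-fold as reported. Removing the floor or raising it to the 75th percentile (8.91) could not change a count. Igfbp6, the gene under the floor, differed by at most 0.63, and Igfbp7, the gene called, stood at 11.59 in serum. Averaging probe sets could change nothing, since each of the 10 genes has 1. Under cyclic loess the median of the set became 0.06, from 0.02, for serum-free medium against serum, and that of all genes 0.01, from -0.004. With a 1.5-fold threshold the count of higher genes became 1, from 0, for retinoic acid against serum-free medium, 1, from 0, for serum-free medium against serum, and 2, from 0, for retinoic acid against serum, which follows from the lower threshold. Under the scaling and pseudocount alternatives Igfbp7 ranged from -2.06 to -2.02 for serum-free medium against serum and from -2.04 to -2.00 for retinoic acid against serum. Igf1 ranged from 0.77 to 0.83 for serum-free medium against serum, and Igfbp5 from 0.63 to 0.65 for retinoic acid against serum-free medium. No paired analysis was possible because each medium has 1 array. No array could be left out for the same reason. Small differences are limited by RMA's exact ties, and Igfbp6 by its signal below the floor.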
